A study of Mus musculus with 4 samples.

Results

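The calcium- and integrin-binding genes Cib1, Cib2, Cib3 and Cib4 were followed in 4 mouse liver libraries. The 4 genes were found by symbol among the 56953 gene rows of the count table, and all 4 have a row. They were chosen by the p-value of Cib3, the smallest of the series when the groups were compared, and the other 3 as its family. Their values in that comparison are therefore given as a description and not as a test. The control group holds 2 libraries from mice with both Ubc13 alleles flanked by loxP sites and without albumin-Cre. The deletion group holds 2 libraries from mice with the same flanked alleles and albumin-Cre, a transgene whose albumin promoter directs recombination to hepatocytes. All mice were 2 months old and on a normal diet. Ubc13 is the protein of Ube2n, the conjugating enzyme for K63-linked polyubiquitin, and the series asks how its loss bears on fatty liver disease. The labels name liver as the source, but their library protocol speaks of primary hepatocytes, and which was sequenced is not settled. Nor do they say that replicates came from separate animals, so the errors given here measure the spread between libraries.

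CIB proteins are small calcium sensors of the EF-hand class, a fold that changes shape on binding calcium. CIB1 is widely expressed, binds the cytoplasmic tail of the platelet integrin subunit αIIb and the kinase PAK1, and forms a complex with the membrane proteins EVER1 and EVER2 (Tmc6 and Tmc8). CIB2 and CIB3 are known from the inner ear, where they bind the channel proteins TMC1 and TMC2 of hair cells, and CIB4 from male germ cells. No liver function of Cib3 is assumed here.

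Facts of the libraries bear on every value below. Total counts ranged from 16270424 to 17800138. Levels are given in CPM, the count relative to the library's total after TMM scaling. Ube2n was at 41.3 and 44.9 CPM in the controls (replicates 1 and 2) but at 5.88 and 5.97 CPM in the deletion libraries. The labels do not name the flanked exons, so whether the counted 3' end lies in the deleted part is not known. The groups also differed in sex-linked RNA: counts of Xist, which coats the inactive X chromosome in females, were 9 and 2 for the controls against 9590 and 3896 for the deletion libraries. The Y-linked transcripts of Ddx3y, Eif2s3y, Kdm5d and Uty together reached 142.6 and 151.8 CPM in the controls, 0 CPM in deletion replicate 1 and 90.3 CPM in deletion replicate 2. Genotype and this difference cannot be told apart with these libraries. Deletion replicate 2 held both kinds of RNA, Xist at 200.5 CPM and the Y-linked transcripts at 90.3 CPM. In both it lay between the controls and deletion replicate 1, and whether it holds RNA of several animals is not known here. Hepatocyte markers (10 of 10 tested) summed to 161700 to 162800 CPM in the controls against 64790 to 68820 CPM with the deletion, and 4 of them were called lower at an edgeR adjusted p under 0.05, where 2.16% of all 14600 genes tested were. In bulk libraries fewer cells of a type and less RNA per cell cannot be told apart.

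The members lie on 4 chromosomes, all on the minus strand of GRCm38 (GENCODE M21). Cib1 (ENSMUSG00000030538) lies on chromosome 7 from 80227147 to 80232813, Cib2 (ENSMUSG00000037493) on chromosome 9 from 54544794 to 54560218, Cib3 (ENSMUSG00000074240) on chromosome 8 from 72204335 to 72212837 and Cib4 (ENSMUSG00000053194) on chromosome 5 from 30485583 to 30545836. Libraries of this 3' kind read 1 stretch near the end of a transcript, so levels are set side by side between genes without a length correction. This takes the same share of transcripts to be counted for each gene, which was not tested. The last 60 coding bases before the stop codon are shown because they tell how far the expressed members differ at their coding ends. The last exon holds 19 coding bases in Cib1, Cib2 and Cib3, but 240, 691 and 53 bases in all. Reads of Cib1 and Cib2 may thus fall beyond the stretch shown. The annotated last exon of Cib3 is shorter than a read of 75 bases, so reads from its end may cross an exon junction. Whether such reads were counted as fully as those of Cib1 and Cib2 is not known here. Capitals in Cib1 and Cib2 mark bases identical to Cib3 at the same distance from the stop codon.
Cib3: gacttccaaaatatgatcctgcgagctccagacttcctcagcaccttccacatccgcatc
Cib2: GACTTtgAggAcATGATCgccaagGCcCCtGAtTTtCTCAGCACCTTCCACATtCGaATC
Cib1: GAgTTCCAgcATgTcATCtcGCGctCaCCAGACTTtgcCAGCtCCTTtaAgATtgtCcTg
Over this stretch Cib2 shares 43 bases with Cib3 and Cib1 shares 38. Across the aligned coding sequence, Cib2 and Cib3 are 63.8% identical, the closest pair of the family, where Cib1 and Cib3 are 58.3% and Cib3 and Cib4 57.0% identical. The longest run of bases that the Cib3 transcript shares with another member is 17 (with Cib2), against a read length of 75. None of the 556 windows of 30 bases in the annotated Cib3 transcript occurs in an annotated transcript of another gene (0 of 556), and the same holds for Cib1 (0 of 1018). For Cib2, 6 of 1404 windows also occur in other genes, and for Cib4, 22 of 740.

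Cib3 was the member that differed most between the groups. The controls gave 30 and 20 counts (replicates 1 and 2) and the deletion libraries 1695 and 2289, which are 1.85 and 1.37 CPM against 93.1 and 117.8 CPM. Both deletion libraries lay far above both controls. The means were 1.61 ± 0.34 and 105.5 ± 17.4 CPM (SD, n = 2 each), and the log2 fold change was 6.02 ± 0.25 (SE), or 64.8-fold. Within groups the libraries were close: replicate 2 over replicate 1 was 0.742 in the controls (exact counting interval 0.400 to 1.35) and 1.27 in the deletion libraries (1.19 to 1.35). The interval in the controls includes 1, and that in the deletion libraries does not.

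The rule that chose Cib3 was its p-value (2.52e-07, edgeR adjusted p = 0.00188), the smallest of 14600 genes tested. The next gene, the ubiquitin-like modifier Ubd, had a p of 5.81e-07 and the same adjusted p. Cib3 did not have the largest fold change, since 24 genes had a larger positive one. By count, Cib3 stood at position 12023 of 21111 genes with a count in control replicate 1 and 12471 of 20278 in control replicate 2. It stood at 1534 of 21039 and 1155 of 21827 in deletion replicates 1 and 2. Without deletion replicate 1, the library with no Y-linked RNA, the log2 fold change was 6.17, and without deletion replicate 2 it was 5.84.

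**Figure D1:**
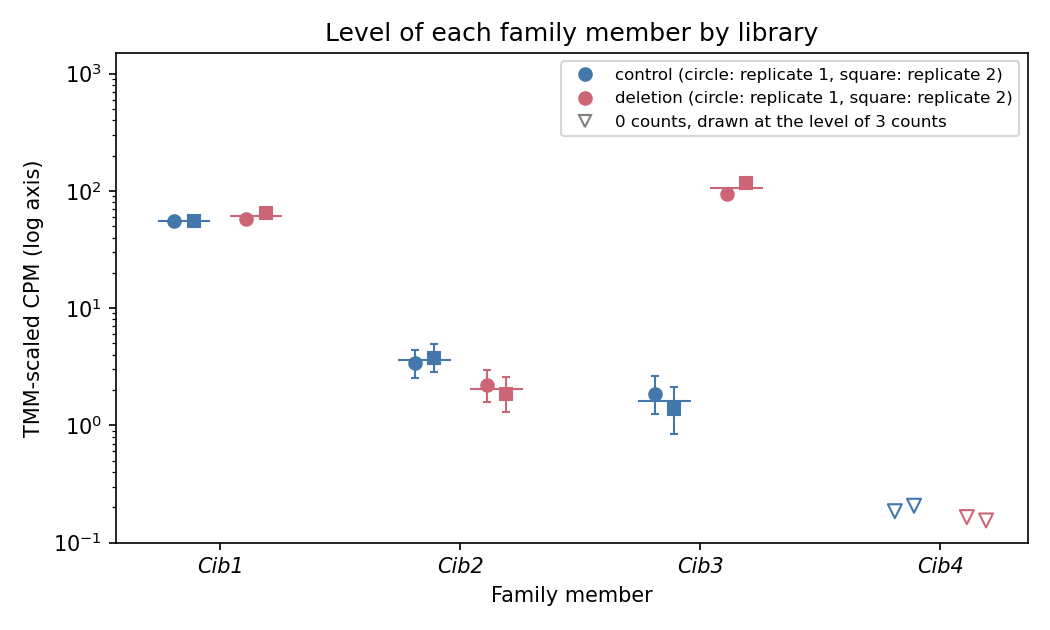
TMM-scaled CPM on a log axis for each member in each library, with circles for replicate 1, squares for replicate 2, exact 95% counting intervals and a line at each group mean. Cib3 sits near 1.6 CPM in the controls and near 105.5 CPM in the deletion libraries, while Cib4 had 0 counts and is drawn at the level of 3 counts.

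Cib1, the broadly expressed member, had 906 and 802 counts without Cre against 1052 and 1252 with it. This is 55.9 and 55.1 CPM against 57.8 and 64.4 CPM, so the deletion libraries lay slightly above the controls. The log2 fold change was 0.139 ± 0.145, no larger than its SE. With library sizes alone as scaling it was 0.43, where the median of all genes moved by 0.29.

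Cib2 was expressed at a low level and was lower in the deletion libraries. Its counts were 55 and 55 in the controls against 40 and 36 with the deletion, which are 3.39 and 3.78 CPM against 2.20 and 1.85 CPM. The groups did not overlap, and the log2 fold change was -0.82 ± 0.32, which was not called (edgeR adjusted p = 0.186). The exact counting intervals were 2.556 to 4.42 and 2.85 to 4.92 CPM in control replicates 1 and 2. They were 1.57 to 2.99 and 1.30 to 2.565 CPM in deletion replicates 1 and 2. Only those of control replicate 2 and deletion replicate 2 did not overlap, so depth limits what this gene can show. The last exon of Cib2 overlaps Sh2d7 on the opposite strand, which had 13 counts in control replicate 1 and 0 in the other libraries. The strand setting of the counting is not known here, so reads of the 2 genes in the overlap may not have been told apart.

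Cib4, the germ cell member, had 0 counts in all 4 libraries. At this depth 3 counts correspond to 0.154 to 0.206 CPM, and a level below that was not detectable.

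Of the 3 members that passed the filter on low counts, edgeR called 1 at an adjusted p under 0.05, where 6.57% of all 14600 genes tested were called (4.41% higher and 2.16% lower). The groups of all 3 did not overlap, 2 of them higher and 1 lower in the deletion libraries, as was the case for 56.0% of all genes tested (28.7% higher and 27.3% lower). Since the members were chosen with this comparison known, nothing is read from these counts.

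The order of the members by counted level differed between the groups. Comparisons between members below hold for counted reads, since the share of transcripts counted may differ by gene. In both controls Cib1 was highest, followed by Cib2, Cib3 and Cib4. Cib1 exceeded Cib3 by 30.2-fold and 40.1-fold there, and the counting intervals of Cib2 and Cib3 overlapped in control replicate 1 (2.56 to 4.42 against 1.25 to 2.64 CPM). In both deletion libraries Cib3 was highest, at 1.61 and 1.83 times the level of Cib1, with Cib2 next and Cib4 at 0. Cib3 made up 3.03% (exact 95% interval 2.05 to 4.29) and 2.28% (1.40 to 3.50) of the family counts in the controls and 60.8% (59.0 to 62.6) and 64.0% (62.4 to 65.6) in the deletion libraries. The family together reached 60.7 ± 0.6 CPM in the controls against 168.6 ± 21.9 CPM with the deletion. Without Cib3 the sums were 59.1 ± 0.3 and 63.2 ± 4.4 CPM.

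**Figure D2:**
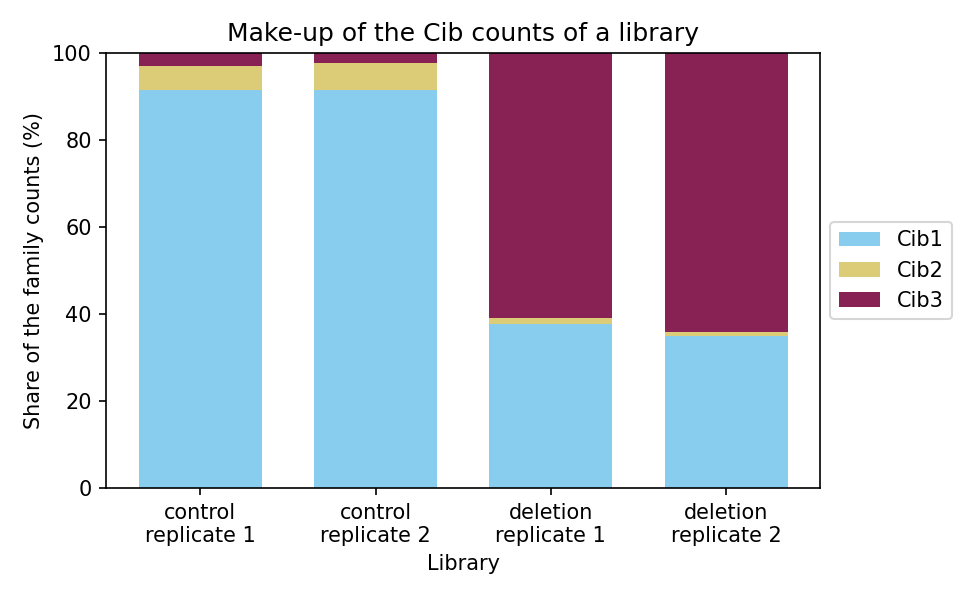
Stacked bars give the share of the counts of Cib1, Cib2 and Cib3 within each library, in percent, with Cib4 at 0 throughout. Cib3 fills 3.03% and 2.28% of the control bars and 60.8% and 64.0% of the deletion bars.

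The structure of the genes sets Cib2 and Cib3 apart as a pair. Their coding exons from the third of Cib2 onward have the same numbers of coding bases as those from the second of Cib3 onward, 112, 148, 196 and 19, and the final exon of Cib1 also holds 19. In front of these, Cib2 has coding exons of 51 and 35 bases, as does Cib1, whereas the M21 model of Cib3 has 5 coding bases. The RefSeq gene on GRCm38.p6 reaches farther upstream, to position 72213086. Within the 250 bases upstream of the M21 start, the stretch chr8:72212924-72212974 on the minus strand begins with atg and matches the 51 coding bases of Cib2 exon 1 at 40 positions without a gap. Of 32817 upstream windows of that length in the RefSeq table, 1 matched that well, the window of Cib3 itself, and the median best match was 22 bases. Both stretches are shown because they place a Cib2-like coding start upstream of the Cib3 model used for its coordinates; capitals mark identical bases.
Cib2 exon 1: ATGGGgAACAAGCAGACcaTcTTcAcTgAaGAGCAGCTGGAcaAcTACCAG
Cib3 upstream: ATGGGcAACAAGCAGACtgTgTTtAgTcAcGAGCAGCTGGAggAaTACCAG
The same 51 positions match Cib1 exon 1 at 28 bases. The start given for Cib3 is thus uncertain, and no promoter is shown for it. Reads near the 3' end do not depend on that start.

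Of the genes next to the members, none that was tested was called. Rab8a, a vesicle-trafficking GTPase on the lower-coordinate side of Cib3, had 72.9 CPM in control replicate 1 with a log2 fold change of 0.11 ± 0.15 (adjusted p = 0.717 by edgeR), and Fam32a on the other side had -0.03 ± 0.18 (adjusted p = 0.950). Hsh2d, an adaptor of blood cells whose gene ends 2808 bases from Cib3 on the opposite strand, had 1 and 0 counts in the controls against 5 and 6 with the deletion, and Gm11034 had 0 counts. Around Cib1, the neighbours Gdpgp1, Sema4b, Ttll13 and Idh2 had log2 fold changes of 0.07, -0.23, -0.41 and -0.01. Dmxl2 and Idh3a beside Cib2 had 0.33 and -0.07, and Slc35f6 beside Cib4 had -0.11. Of the remaining neighbours of Cib2 and Cib4, Gm25666 has no row in the count table, and the others had 15 or fewer counts over a group and were not tested.

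Among binding partners of CIB1, the kinase Pak1 was called higher. Pak1, which relays signals of Rac and Cdc42 to the cytoskeleton, was at 3.82 and 4.67 CPM without Cre against 19.2 and 28.8 CPM with it. Both deletion libraries lay above both controls (log2 fold change 2.50 ± 0.27, edgeR adjusted p = 0.00800, higher in 2 of 2 deletion libraries). Of the 16 partners tested, 1 was higher, 0 were lower and 15 were not called (3 higher and 0 lower at an unadjusted p under 0.05), which is 6.25% called against 6.57% of all genes tested. At an unadjusted p under 0.05, 14.0% of all genes tested were higher and 10.5% lower. The list's median log2 fold change was 0.23, beside 0.00 over all genes tested. Itga2b, the integrin subunit αIIb bound by CIB1, was at -0.13 ± 0.27 and its platelet partner Itgb3 at 0.06 ± 0.22 (adjusted p = 0.816 and 0.898), but the sign of Itga2b turned with library sizes alone and that of Itgb3 without control replicate 1. Tmc6 and Tmc8 were at 0.61 ± 0.19 and 0.65 ± 0.35 (adjusted p = 0.116 and 0.322), and Ppp3r1, the calcineurin regulatory subunit, at 0.23 ± 0.14 (adjusted p = 0.381).

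**Figure D3:**
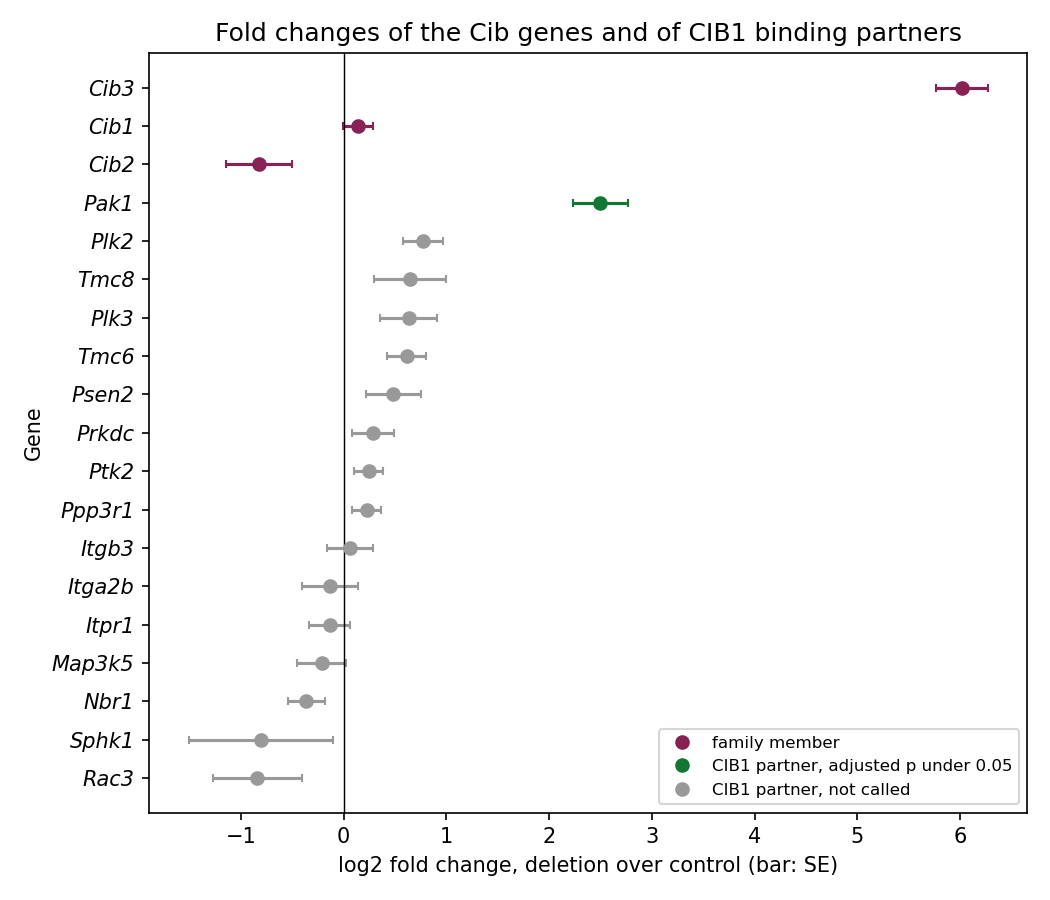
Log2 fold changes, deletion over control, with SE bars, for the 3 tested family members and the 16 CIB1 partners. Cib3 stands at 6.02, and of the partners only Pak1 at 2.50 passed the test.

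Of the channel proteins that CIB2 and CIB3 bind in hair cells, Tmc2 had 0 counts in all libraries, and Tmc1 had 1 count in deletion replicate 2 and 0 in the others. Pcdh15, a tip link cadherin, and Loxhd1 also had 0 counts throughout. Other genes of the hair bundle were expressed. Myo7a, an unconventional myosin, had 366 and 387 counts in the controls against 620 and 915 with the deletion (log2 fold change 0.72 ± 0.21, edgeR adjusted p = 0.0972). Tmie, a subunit of the transduction complex, had 176 and 112 counts against 206 and 292 (0.50 ± 0.26, edgeR adjusted p = 0.298). The groups of both genes did not overlap, as was the case for 56.0% of all genes tested, and neither was called. The list of the TMC family and the hair bundle transduction complex held 16 genes, of which 8 were tested. Of these edgeR called 0, where 6.57% of all genes tested were called, and DESeq2 called 0. At an unadjusted edgeR p under 0.05, 2 were higher and 1 lower, beside 14.0% and 10.5% of all genes tested. Whrn, the scaffold protein whirlin, had 7 and 11 counts in the controls against 12 and 25 with the deletion (log2 fold change 0.72 ± 0.58, adjusted p = 0.508). The list's median was 0.63, with values from -0.79 to 2.38. Without control replicate 2, 2 members were called, and without control replicate 1, 1 was called.

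Integrin subunits held 1 called gene. Itga6, the α6 subunit of laminin receptors, was at 6.11 and 5.84 CPM in the controls against 22.0 and 25.3 CPM with the deletion, without overlap. Its log2 fold change was 1.99 ± 0.18 (edgeR adjusted p = 0.00544, higher in 2 of 2 deletion libraries). Of 21 integrin subunits tested, 1 was higher, 0 were lower and 20 were not called (4.76% called against 6.57% of all genes tested; at an unadjusted p under 0.05, 5 were higher and 0 lower, beside 14.0% and 10.5% of all genes), and the median was 0.23. The count was 5 without control replicate 2. With a covariate for male RNA Itga6 had a log2 fold change of 2.20 and was not called (adjusted p = 0.0970).

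EF-hand relatives of the family, among them calmodulins, calcineurin B and neuronal calcium sensors, had a median log2 fold change of 0.55 over 14 tested genes. Calml4, a calmodulin-like protein of brush borders, had 12 and 12 counts in the controls against 65 and 63 with the deletion, so its log2 fold change was 2.11 ± 0.37 (edgeR adjusted p = 0.0292). It was the 1 member called, which is 7.14% against 6.57% of all genes tested. At an unadjusted p under 0.05, 7 members were higher and 0 lower, where 14.0% of all genes were higher and 10.5% lower. Calml4 was not called without deletion replicate 1 or 2 (adjusted p = 0.147 and 0.158), with a replicate block (0.0829) or with a covariate for male RNA (0.420). The count of called relatives was 3 without control replicate 1 and 2 without control replicate 2. Chp1, a calcineurin-like cofactor of sodium-proton exchangers, was at -0.44 ± 0.20 (adjusted p = 0.244).

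The 10 genes with the profile nearest to that of Cib3 over the 4 libraries were found by Euclidean distance in log2 CPM, centred on each gene's own mean. This is a description over 4 libraries, and the likeness is mostly the difference between the groups. The log2 CPM includes a small added count, which draws in the values of genes with almost no control counts. Sprr1a and Cdh17 are among the 10, although their fitted log2 fold changes were 8.39 and 8.81, against 6.02 for Cib3. The nearest was the glutathione transferase Gsta1 at a distance of 0.541, with 17 and 8 counts in the controls against 590 and 1056 with the deletion. Sprr1a, an epithelial envelope gene (0.665), had 1 and 0 counts against 172 and 333. The predicted gene Gm3776 (0.802), which lies on chromosome 9 as Gsta1 does, and the matricellular gene Ccn5 (0.950) followed. Lipocalin Lcn2 (0.986), osteopontin Spp1 (1.05), the lysosomal GTPase Rragd (1.06), the cadherin Cdh17 (1.19), the transporter Abcc12 (1.29) and the unnamed ENSMUSG00000119954 (1.31) completed the set. Gsta genes are near-identical copies that can share reads, so the value of Gsta1 is uncertain.

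**Figure D4:**
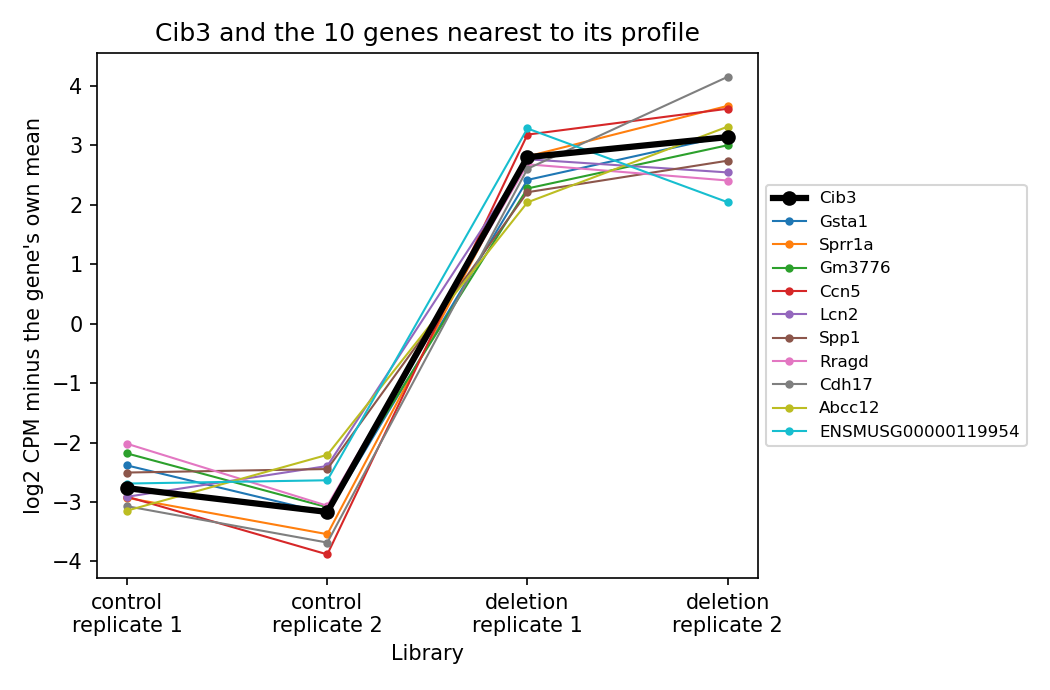
Log2 CPM minus each gene's own mean in the 4 libraries, for Cib3 (thick black line) and the 10 nearest genes. Cib3 runs from -2.77 and -3.17 in the controls to 2.80 and 3.14 in the deletion libraries, with the other lines beside it.

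Marker genes of other cell types also differed between the groups, and their part in the Cib3 difference was not tested. The counts of called markers stand beside 4.41% higher and 2.16% lower of all genes tested. Ductular markers (9 of 10 tested, 2 called higher and 0 lower) summed to 81.5 to 139.6 CPM in the controls against 1388 to 2008 CPM with the deletion, nearly all of it Spp1. Without Spp1 the sums were 89.2 and 29.1 CPM in the controls against 60.8 and 92.0 CPM with the deletion. The cholangiocyte keratin Krt19 had 635 and 47 counts in the controls against 53 and 77 with the deletion. Markers of monocyte-derived macrophages (8 of 8 tested, 5 higher and 0 lower, none at 0) summed to 31.2 to 34.7 CPM in the controls against 265.9 to 363.7 CPM with the deletion. Most of the sum with the deletion was Cybb (183.1 and 190.4 CPM in replicates 1 and 2) and Cd9 (68.3 and 158.6 CPM). Without Cybb the sums were 18.1 and 17.4 CPM in the controls against 82.8 and 173.3 CPM with the deletion. Kupffer cell markers (8 of 8 tested, 1 higher and 0 lower, none at 0) summed to 310.5 to 440.6 CPM in the controls against 588.7 to 702.7 CPM with the deletion. Intestinal epithelial markers (5 of 8 tested, 2 higher and 0 lower) summed to 68.5 to 75.9 and 41.5 to 63.1 CPM, with Cdx2 and Sis at 0. Sums of stellate cell (314.5 to 464.0 and 380.9 to 399.9 CPM) and lymphocyte markers (3.64 to 5.77 and 4.17 to 6.87 CPM) overlapped between the groups, as did those of platelet markers (7.28 to 7.90 and 7.57 to 10.1 CPM). Sinusoidal endothelial markers summed to 249.9 to 279.7 CPM in the controls against 215.2 to 218.0 CPM with the deletion, and neutrophil markers to 0.617 to 2.61 and 5.17 to 5.66 CPM. None of the tested members of these last 5 lists was called. Only 2 of 8 neutrophil, 2 of 8 platelet and 6 of 8 lymphocyte markers had enough counts to be tested.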

How the data were processed

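Single-end reads of 75 bp came from 3' mRNA libraries of oligo-dT primed RNA and were aligned with Bowtie2, per the labels' protocols. Builds mm10 and GRCm38 are named in the submitters' processing notes; how reads were counted, with which strand setting and annotation, is not given in the sources used here. Raw counts per Ensembl gene, as deposited by the authors, filled 56953 rows; 52029 were matched to symbols of GENCODE M21, and each column was assigned by the labels. No other columns were present (0).

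The comparison used edgeR 4.0.16 (quasi-likelihood F test, R 4.3.3, two-sided, TMM scaling, filterByExpr with min.count 10 and min.total.count 15, Benjamini-Hochberg adjustment over 14600 genes, called under 0.05). The SE was obtained by dividing the absolute log2 fold change by the root of F, and ± after CPM is an SD over 2 libraries. The fit had 2 residual degrees of freedom. An exact permutation test of 2 libraries against 2 cannot go below a two-sided p of 0.333, and none was run. Exact intervals (95%) and the floor of 3 counts cover counting error only. The fit was tested on simulated data. Replicate libraries differed beyond sampling noise (chi-square per degree of freedom 42.9 and 28.0).

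Members, gene lists, alternatives and the rule for named genes were chosen with earlier results of these data known. The rule takes the members, Ube2n, sex-linked genes, called list members (at most 6 per list), 9 partner genes, neighbours, the 10 genes nearest to Cib3 and the gene next to it by p. Alternatives were other scalings (DESeq2 1.42.0 size factors, library sizes), DESeq2, limma-voom (limma 3.58.1), no filter, each library left out, a replicate block and a covariate for male RNA. Sequences were taken from RefSeq (GRCm38.p6) and GENCODE M21 transcripts.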

Additional observations from a re-analysis of the deposited data

How the results depend on the processing

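The difference of Cib3 kept its direction and its side of the threshold under all 12 alternatives, with log2 fold changes from 5.83 (without control replicate 2) to 6.36 (with a covariate for male RNA) and adjusted p-values up to 0.0165. Cib1 and Cib2 kept their signs and were not called under any of them. Since Cib3 was chosen by its p-value in these same libraries, its result under the alternatives is a description and not a test. Its place in order of p stayed 1 with DESeq2 size factors and with library sizes alone. It was 3 with DESeq2, 7 with limma-voom, 6 without a filter, 5 with the replicate block and 2 with the male RNA covariate. These places cover only alternatives that kept all 4 libraries, and without control replicate 2 it was farther down still. With a library left out, the lone library of its group was assumed to vary like the others.

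Genes called over the whole table numbered 959 (67.2% higher). They were 1764 with library sizes alone (88.5% higher), 1558 with DESeq2, 2768 without a filter, 343 to 2081 with 1 library left out (343 without deletion replicate 2, 499 without deletion replicate 1, 1700 without control replicate 1), and 65 with the male RNA covariate (95.4% higher). With that covariate Ube2n, the deleted gene, had a log2 fold change of -2.82 and was not called either (edgeR adjusted p = 0.0643). The covariate itself differed between the groups, at 0.969 and 1.03 in the controls against 0 and 0.613 in deletion replicates 1 and 2. It also uses up a residual degree of freedom, so lost calls cannot be read as an effect of sex-linked RNA. A replicate block gave 390. The deviations of same-numbered libraries had a correlation of -0.12, and crossing the replicate numbers in the block, an alternative chosen after seeing the data, gave 1366; the cause was not tested. Among the lists, library sizes alone called 3 CIB1 partners, 4 EF-hand relatives, 6 integrin subunits and 2 TMC and hair bundle genes; no filter called 4, 6, 4 and 3. With 1 library left out the counts ran from 1 to 3, 0 to 3, 1 to 5 and 0 to 2. DESeq2 called 2 EF-hand relatives. The replicate block called 0 EF-hand relatives, and the crossed block 3 of them and 3 integrin subunits. With the male RNA covariate 0 EF-hand relatives and 0 integrin subunits were called.

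Signs turned for these uncalled genes. With library sizes alone the log2 fold changes were 0.15 for Itga2b, 0.069 for Sema4b, 0.28 for Idh2, 0.22 for Idh3a, 0.27 for Fam32a and 0.18 for Slc35f6. Idh2 was at 0.0017 with limma-voom and 0.0046 without a filter. With 1 library left out, values ran from -0.16 to 0.32 for Itgb3, -0.72 to 0.16 for Sema4b, -0.13 to 0.13 for Idh2, -0.76 to 0.076 for Ttll13, -0.20 to 0.16 for Fam32a, -0.33 to 0.15 for Idh3a and -0.032 to 0.16 for Gdpgp1. With the male RNA covariate Sema4b was at 0.57, Rab8a at -0.0064, Fam32a at 0.19, and the Y-linked Ddx3y, Uty, Kdm5d and Eif2s3y, from which the covariate was built, at 5.10, 4.93, 4.54 and 5.08, where they were at -1.84, -1.41, -1.50 and -1.68 without it. Cib2 and Cib4 are limited by depth.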
